A study of Mus musculus with 46 samples.

Results

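Genes of myelin and mature oligodendrocytes were followed in the subventricular zone (SVZ) of control mice, of mice after 14 day PLX3397 and of mice at 5 day recovery. They are 9 of the 15695 genes listed for this tissue: Mbp, Mog, Mag, Mobp, Cnp, Cldn11, Tspan2, Opalin and Ermn. The genes were chosen by name, for what they are known to encode, but with earlier results of these data known, so their p-values are not independent of that choice. All 9 were found by their symbols. RNA-seq was performed on bulk tissue cut as a thin layer from the walls of the lateral ventricles of C57BL/6 mice. Each of the 3 groups had 5 libraries (15 of the 46 libraries of the series). The other libraries hold myeloid cells sorted from control mice and from mice at recovery after PLX3397, some of them given lipopolysaccharide. For the SVZ, the study asked how the tissue changes while microglia are absent and as they first return. The tissue label is subventricular zone, while the extraction text shared by all labels names other brain regions (cortex, hippocampus, and striatum with thalamus); the dissection is given here as in the methods. The methods give male mice aged to 1.5 months. Control mice received vehicle chow, 14 day PLX3397 mice received chow with 600 ppm of PLX3397, a CSF1R inhibitor that removes microglia, for 14 days, and 5 day recovery mice received the same 14 days of PLX3397 followed by 5 days on vehicle chow. The drug was given in chow, so its action was not limited to the SVZ by design, and each group was sampled at a single time, so drug, loss of microglia and time on chow cannot be told apart in the 14 day PLX3397 group. The methods count n in mice, so each library stands for a separate mouse.

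Oligodendrocytes are the glia that wrap axons of the central nervous system in myelin, a compacted stack of membrane that speeds conduction of nerve impulses. They arise throughout life from oligodendrocyte precursor cells, some of which are generated in the SVZ, and pass through a short-lived newly formed stage before they switch on the genes of the sheath under the transcription factors Sox10 and Myrf. The walls of the lateral ventricles border the corpus callosum and the striatal fibre bundles, so dissected SVZ tissue carries myelinated fibres beside its stem cells and neuroblasts. Among the 9 genes, Mbp encodes the basic protein that holds the inner faces of the membrane together, and Mobp a further basic protein of compact myelin. Cnp encodes an enzyme of the uncompacted cytoplasmic channels, Cldn11 the claudin of the tight junctions between myelin layers, and Mag and Mog immunoglobulin-family proteins of the inner and the outermost surface of the sheath. Tspan2 encodes a tetraspanin of oligodendrocytes, Opalin a sialylated transmembrane protein particular to them, and Ermn (ermin) an actin-associated protein of late maturation.

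The stretches just upstream of the genes are shown because the members moved together in most libraries, and 2 of them, Cldn11 and Tspan2, were the only members that passed the test across all genes. RefSeq promoters (GRCm38.p6) were given for 8 of the 9 genes, over 11 annotated starts, and Mbp is named only. The 250 bases before the start were searched on both strands for CTGGNAC, taken here as a Myrf motif, and for ACAANG, taken here as a Sox motif. N stands for any base, so a match can be looser than a site that the protein binds. A match of one can share its end letters AC with the start of a match of the other. CTGGNAC lay before 3 of the 8 genes (Mag, Cnp and Mog) and in 4 of the 11 windows, of which 2 are overlapping windows of Mag that hold the same sites, against 16.1% of all 32851 promoter windows of that length. ACAANG lay in 9 of the 11, against 36.3%, and the 2 overlapping windows of Mag again hold the same sites. The 2 without it are those printed here for Cldn11 and Tspan2, and the other start of Tspan2 holds it. Capitals mark CTGGNAC or its reverse complement, and all sequences read 5′ to 3′ on the strand of the gene. The window of Cldn11 is chr3:31149670-31149919 on the plus strand, that of Tspan2 (the first of 2 starts) chr3:102734520-102734769 on the plus strand, that of Mag (1 of 3 starts) chr7:30914923-30915172 on the minus strand, that of Cnp chr11:100574689-100574938 on the plus strand and that of Mog chr17:37023399-37023648 on the minus strand.
Cldn11: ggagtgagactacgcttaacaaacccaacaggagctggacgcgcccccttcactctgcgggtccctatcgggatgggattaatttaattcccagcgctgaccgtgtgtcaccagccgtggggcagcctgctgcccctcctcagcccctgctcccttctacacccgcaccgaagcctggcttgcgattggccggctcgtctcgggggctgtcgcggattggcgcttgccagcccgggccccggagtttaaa
Tspan2: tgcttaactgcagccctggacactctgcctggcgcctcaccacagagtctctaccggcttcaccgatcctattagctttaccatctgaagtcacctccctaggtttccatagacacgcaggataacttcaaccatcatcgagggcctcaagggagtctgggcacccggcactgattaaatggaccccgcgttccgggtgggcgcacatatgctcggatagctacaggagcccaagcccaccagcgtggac
Mag: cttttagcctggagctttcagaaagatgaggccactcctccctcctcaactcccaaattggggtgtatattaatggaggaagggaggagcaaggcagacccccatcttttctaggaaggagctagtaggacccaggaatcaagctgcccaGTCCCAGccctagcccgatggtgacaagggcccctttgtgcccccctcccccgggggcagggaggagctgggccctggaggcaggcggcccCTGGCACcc
Cnp: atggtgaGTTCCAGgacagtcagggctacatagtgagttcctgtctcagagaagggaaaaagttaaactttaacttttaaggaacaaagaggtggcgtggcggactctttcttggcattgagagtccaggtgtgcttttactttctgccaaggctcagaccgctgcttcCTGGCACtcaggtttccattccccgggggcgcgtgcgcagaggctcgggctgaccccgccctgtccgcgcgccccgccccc
Mog: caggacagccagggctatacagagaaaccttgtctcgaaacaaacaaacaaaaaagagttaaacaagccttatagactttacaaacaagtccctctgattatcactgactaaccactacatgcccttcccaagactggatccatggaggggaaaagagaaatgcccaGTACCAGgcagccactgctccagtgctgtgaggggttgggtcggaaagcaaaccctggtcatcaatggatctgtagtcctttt
Mag held the motif 93 and 2 bases before the start, Cnp 236 and 74 bases before it, and Mog 76 bases before it. The letters are a description of these windows, and binding was not measured. The genes with the motif and the genes without it both included members that were lower at recovery, as the values below give them.

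All 9 genes were abundant in every library, with 17.2 FPKM (fragment counts scaled by transcript length and by library size) as the lowest value of any member, so none was lost to the filter on low values. Together they made up 0.442% to 0.602% of all summed FPKM in control libraries, 0.507% to 0.93% in 14 day PLX3397 libraries and 0.378% to 0.558% in 5 day recovery libraries. Because FPKM is set per length, the genes can be ordered by level. In control mice Mbp stood first at 1072 ± 133 FPKM (SD, n = 5, as for all group means below), followed by Cnp at 374 ± 39.0, Cldn11 at 240 ± 13.7, Mobp at 212 ± 32.0 and Mag at 195 ± 27.8 FPKM. Mog at 90.4 ± 9.73, Opalin at 75.0 ± 12.1, Ermn at 30.3 ± 2.73 and Tspan2 at 21.3 ± 2.02 FPKM completed the order. The ranges over control libraries overlapped between neighbours only for Cldn11 and Mobp, Mobp and Mag, and Mog and Opalin. The order was almost the same in the other groups: Mag passed Mobp at 14 day PLX3397, and Mobp passed Cldn11 at 5 day recovery, in both cases with overlapping ranges.

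Some libraries stood apart and touch the results. Replicates 4 and 5 of 5 day recovery lay at 43.8 and 33.3 on the first principal component of all tested genes (24.5% of the variance), while the other 13 libraries lay between -15.0 and 4.26. Across genes, deviations from the mean ran with GC content in replicate 4 (r = -0.49) and with transcript length in replicate 5 (r = -0.36), and control replicate 5 ran with GC content too (r = 0.35), a description over 10274 genes that are not independent. The 14 day PLX3397 replicate 4 held the highest value of its group for all 9 members, 1.32 to 1.52 times the next highest. Its striatal neuron markers summed to the lowest value of its group, 1974 FPKM against 2421 to 3751, and the part of this make-up in its high myelin genes was not tested. Control replicate 1 carried choroid plexus RNA, with a summed 21757 FPKM of the choroid plexus list against 19.4 to 133 FPKM in the other 14 libraries. In whole tissue, a lower level can come from fewer cells of a type or from less RNA in each cell, and these cannot be told apart here.

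**Figure D1:**
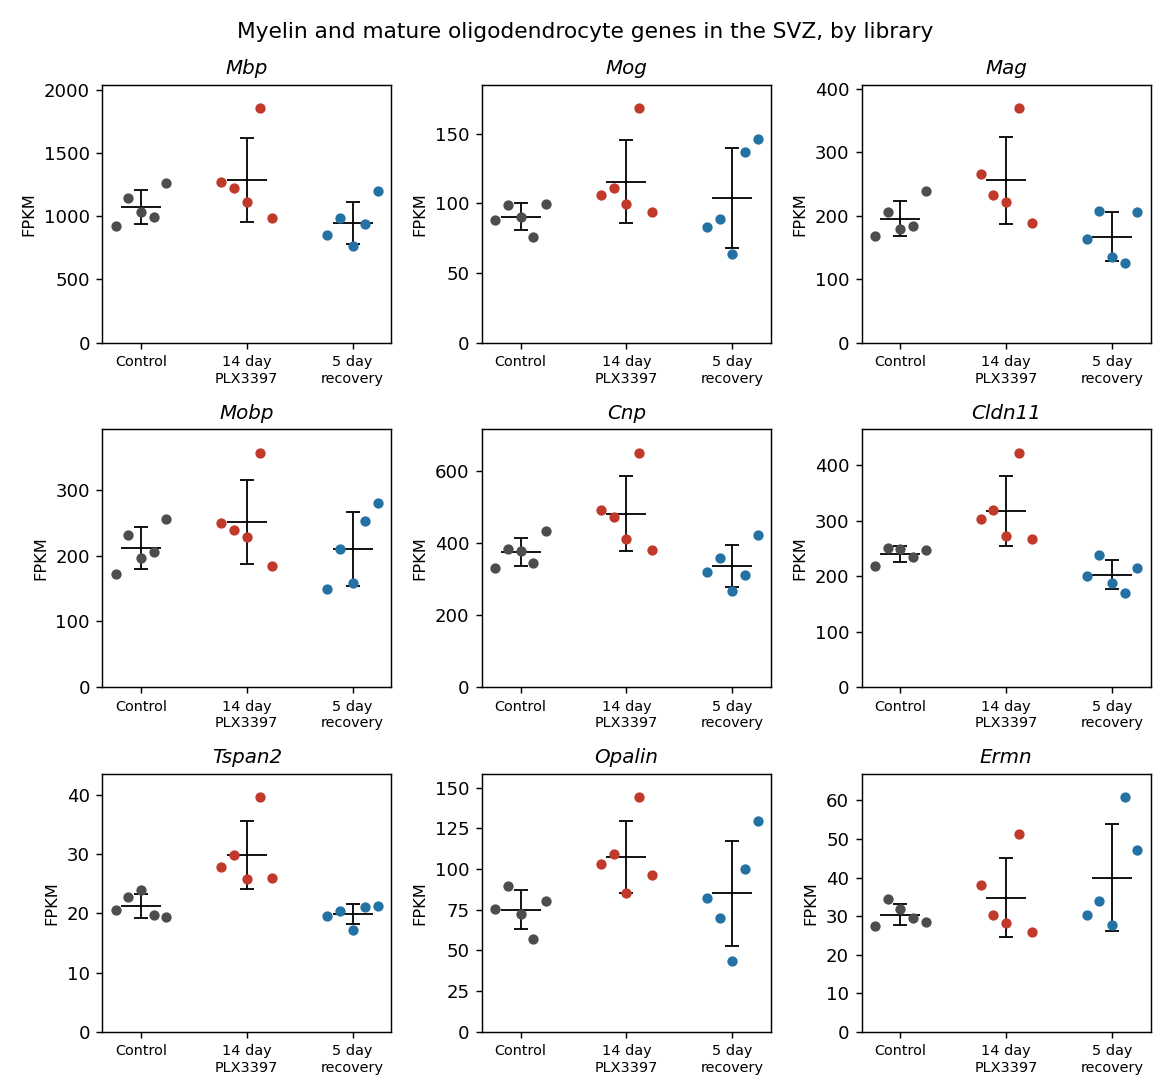
FPKM of each of the 9 genes (vertical axes, starting at 0) in each library of control (grey), 14 day PLX3397 (red) and 5 day recovery (blue); bars give the mean ± SD of 5 libraries, and points run from replicate 1 on the left to replicate 5 on the right. Replicate 4 of 14 day PLX3397 is the highest red point in all 9 panels, and for Cldn11 and Tspan2 the red points lie above all grey and all blue points.

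All 9 myelin genes had a higher mean after 14 days of PLX3397 than in control mice, by less than the test across all genes could separate from the spread between libraries. Their log2 fold changes were positive (as were those of 52% of all 14151 tested genes), from 0.15 for Ermn to 0.51 for Opalin, with a median of 0.34 on the log2(FPKM + 1) scale against 0.0063 over all tested genes. None of the 9 passed an adjusted p of 0.05 in limma, in a comparison where 1.26% of genes did, and 4 of the 9 had an unadjusted p under 0.05, as did 6.12% of all genes. Without replicate 4 of 14 day PLX3397 all 9 differences stayed positive, with a median of 0.22 and Ermn at 0.0035.

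Tspan2 had the smallest p in this comparison. It measured 20.5, 22.8, 24.01, 19.7 and 19.4 FPKM in control replicates 1 to 5 and 27.9, 29.9, 25.8, 39.6 and 25.9 FPKM in 14 day PLX3397 replicates 1 to 5. Every treated library lay above every control library, which held for 2 of the 9 members and for 0.848% of all genes in that direction. The log2 fold change was 0.46 (SE 0.11, adjusted p = 0.0527). Of 27 other settings, 7 brought this p under 0.05, down to 0.0352, and 20 did not, up to 0.159.

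Cldn11 was the other gene whose groups did not overlap. Its control values were 218, 250.15, 249, 234 and 247 FPKM and its 14 day PLX3397 values 304, 319, 272, 422 and 266 FPKM. The control libraries were close together (SD 13.7 FPKM), and the lowest treated library stood clear of the highest control. The log2 fold change was 0.38 (SE 0.12, adjusted p = 0.262).

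The other 7 genes overlapped between the groups. Opalin had the largest estimate, at 75.0 ± 12.1 and 108 ± 22.2 FPKM, with a log2 difference of 0.51 (SE 0.22, adjusted p = 0.726). Mag was at 195 ± 27.8 and 256 ± 69.2 FPKM (0.36, SE 0.17, adjusted p = 0.844), and Cnp at 374 ± 39.0 and 481 ± 105 FPKM (0.34, SE 0.14, adjusted p = 0.632). In 14 day PLX3397 replicate 4, Opalin was at 144, Mag at 369 and Cnp at 649.8 FPKM, the highest value of each. Mog, Mbp, Mobp and Ermn had log2 differences of 0.33, 0.24, 0.22 and 0.15 with adjusted p of 0.969, 0.985, 0.999 and 0.999. In replicate 5 of 14 day PLX3397, Mbp, Mag, Mobp and Ermn lay below their control means, at 987, 188, 185 and 25.9 FPKM.

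**Figure D2:**
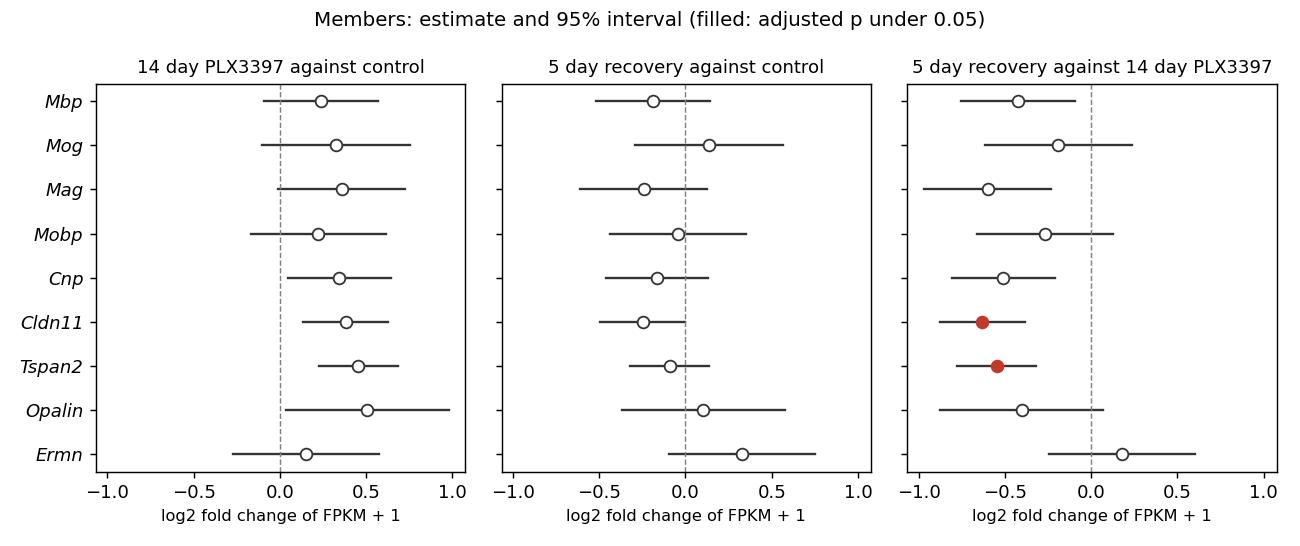
Log2 fold change of FPKM + 1 (horizontal axes) of the 9 genes in the 3 comparisons, with the 95% interval of the limma fit as a line; filled points have an adjusted p under 0.05. Only Cldn11 and Tspan2 in 5 day recovery against 14 day PLX3397 are filled, at -0.63 and -0.55.

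From 14 day PLX3397 to 5 day recovery, 8 of the 9 genes had a lower mean and Ermn a higher one. The median log2 fold change was -0.43, against -0.0059 over all tested genes, of which 51.2% were negative. Cldn11 and Tspan2 fell past the threshold, in a comparison that called 0.325% of all genes, and 5 genes in all (0.0353%) in the lower direction. Of the 9, 5 had an unadjusted p under 0.05, as did 16.5% of all genes.

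Cldn11 fell to 201, 238, 188, 170.45 and 215 FPKM in 5 day recovery replicates 1 to 5, from the 266 to 422 FPKM of the treated mice. All 5 recovery libraries lay below all 5 treated libraries, and 4 of them also lay below the lowest control, 218 FPKM. The log2 fold change was -0.63 (SE 0.12, adjusted p = 0.0265). Leaving out 1 library at a time kept the call in 11 of 15 fits, and it was lost without 14 day PLX3397 replicate 1 (adjusted p = 0.0729) or 2 (0.0890) and without 5 day recovery replicate 1 (0.0516) or 4 (0.0807). It was also lost with the replicate number as a block (0.0784) and with only the 2 groups in the fit (0.102).

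Tspan2 fell to 19.6, 20.4, 17.2, 21.1 and 21.2 FPKM, from 25.8 to 39.6 FPKM under treatment. The recovery libraries were again all below the treated ones and, except replicate 3, within the control range of 19.4 to 24.01 FPKM. The log2 fold change was -0.55 (SE 0.11, adjusted p = 0.0400). This call was the less stable of the pair: of the 15 fits that left out 1 library it held in 2, without control replicate 1 or 14 day PLX3397 replicate 5, and each of the other 13 lost it, with adjusted p between 0.0510 and 0.117, while the log2 fold change lay between -0.59 and -0.44 over the 15 fits. The block and the fit of only the 2 groups lost it too (0.0784 and 0.109). Of the 9 members these 2 lay wholly below the treated libraries, as did 1.42% of all genes.

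Mag, Cnp and Mbp, genes of the sheath's inner surface, its channels and its compact part, had the next smallest p. Mag stood at 163, 207, 136, 125 and 205 FPKM at recovery, with a log2 difference of -0.60 from 14 day PLX3397 (SE 0.17, adjusted p = 0.160). Cnp stood at 320.1, 357, 266, 312 and 423 FPKM (-0.51, SE 0.14, adjusted p = 0.140). Mbp, the most abundant member, stood at 850.5, 987, 761, 937 and 1201 FPKM (-0.43, SE 0.16, adjusted p = 0.229). For all 3 the highest recovery library lay above the lowest treated library, and replicate 3 or 4 held the lowest value.

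Opalin, Mobp, Mog and Ermn were split within the recovery group, with replicates 4 and 5 above replicates 1 to 3. Mog measured 83.4, 89.1, 63.8, 137 and 146 FPKM, Opalin 82.5, 69.7, 43.5, 100.1 and 129 FPKM, and Mobp 149, 211, 159, 252 and 279 FPKM. Ermn measured 30.3, 34.0, 27.8, 60.8 and 47.1 FPKM. The mean of replicates 4 and 5 exceeded that of replicates 1 to 3 by 0.85 for Mog, 0.84 for Opalin, 0.79 for Ermn and 0.63 for Mobp on the log2 scale, while Mbp, Cnp and Tspan2 differed by 0.30, 0.22 and 0.15 and Mag and Cldn11 by -0.048 and -0.12. The longest transcripts of the 4 split genes have a GC content of 50.0% (Mog), 45.8% (Opalin), 38.0% (Ermn) and 53.3% (Mobp), within the 38.0% to 57.6% of all 9, and the part of sequence composition in the split was not tested beyond a correction for GC content and length. Against 14 day PLX3397, Opalin, Mobp, Mog and Ermn had log2 differences of -0.40, -0.27, -0.19 and 0.18, with adjusted p of 0.374, 0.474, 0.665 and 0.682.

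With replicates 4 and 5 of 5 day recovery left out, a setting chosen after the data were seen, all 9 genes had a negative difference from 14 day PLX3397. The median was then -0.58, with 8 genes between -0.74 (Opalin) and -0.52 (Mobp) and Ermn at -0.14. No member passed the threshold with 3 recovery libraries. Cldn11 was at -0.58 (adjusted p = 0.154) and Tspan2 at -0.61 (adjusted p = 0.113). With all recovery libraries but without replicate 4 of 14 day PLX3397, the differences were smaller, with 8 of 9 negative and a median of -0.29. In that fit Mobp was at -0.13, Mog at -0.047 and Ermn at 0.33. Cldn11 kept its call (-0.52, adjusted p = 0.0442) and Tspan2 lost it (-0.44, adjusted p = 0.0617).

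**Figure D3:**
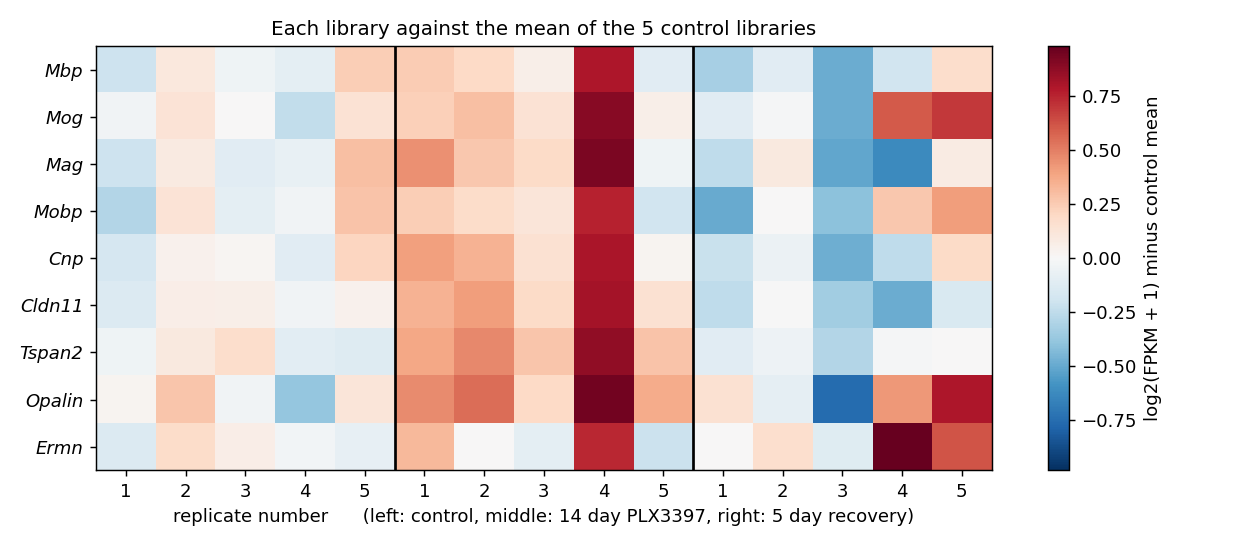
Difference of log2(FPKM + 1) from the mean of the 5 control libraries (colour) for the 9 genes (rows) in the 15 libraries (columns, by replicate number within group). Replicate 4 of 14 day PLX3397 is red in all rows, replicate 3 of 5 day recovery is blue in all rows, and replicates 4 and 5 of 5 day recovery are red for Mog, Mobp, Opalin and Ermn.

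At 5 days after withdrawal, the test did not separate the 9 genes from their control levels, and their estimates went both ways. Of them 6 had a negative and 3 a positive log2 fold change (51.1% of all genes were negative), with a median of -0.092 and a range from -0.25 (Cldn11) to 0.33 (Ermn). No member passed the threshold, where 1.27% of all genes did, and 1 member, Cldn11, had an unadjusted p under 0.05 (0.0493, adjusted p = 0.301). All 9 ranges overlapped with control, while 3.1% of all genes did not overlap in either direction.

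The 95% intervals show how far a difference could reach. For Mbp the interval ran from -0.52 to 0.14, for Cnp from -0.46 to 0.13 and for Tspan2 from -0.32 to 0.14. For Ermn it ran from -0.093 to 0.75 and for Opalin from -0.37 to 0.58. Mog, Opalin and Ermn were the 3 genes with positive estimates, at 0.14, 0.10 and 0.33; without replicates 4 and 5 of 5 day recovery they were at -0.20, -0.23 and 0.015, and 8 of 9 estimates were negative with a median of -0.22.

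Because the 9 genes varied together, each was also set against the mean of the other 8 in the same library. Over the 15 libraries the 36 pairs of members had Pearson correlations of log2(FPKM + 1) from 0.037 (Cldn11 and Ermn) to 0.97 (Mbp and Cnp), with a median of 0.74, a description of libraries that share their groups and depth. Relative to the others, Ermn was higher in every 5 day recovery library than in any library of the other groups. Its relative level was -2.62 ± 0.13 at 14 day PLX3397 and -1.99 ± 0.34 at 5 day recovery (log2, difference 0.62), and -2.42 ± 0.14 in control (difference 0.42). Both differences had an exact two-sided permutation p of 0.00794, the smallest that 5 against 5 libraries allow, and an adjusted p of 0.0714 over the 27 tests of 9 genes in 3 comparisons, so they did not pass. Without replicates 4 and 5 of 5 day recovery the differences were 0.45 and 0.25 (exact permutation p of 0.0179 each, adjusted p = 0.241).

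Cnp was the only other gene to reach the smallest exact p: its relative level was lower at 5 day recovery than at 14 day PLX3397 (1.48 ± 0.14 against 1.62 ± 0.043, difference -0.15, exact permutation p = 0.00794, adjusted p = 0.0714). The differences of Cldn11 and Mag were -0.28 and -0.25 with wider spread, and their exact permutation p were 0.0873 and 0.127. Without replicates 4 and 5 of 5 day recovery the differences of Cnp, Cldn11 and Mag were -0.067, -0.051 and -0.048, and without replicate 4 alone they were -0.089, -0.18 and -0.11. None of the 27 tests passed after adjustment, in a design where several must reach the smallest exact p before any can pass.

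The wider programme of mature oligodendrocytes was read from 30 other genes of myelin and its cells, all tested. In 14 day PLX3397 against control 26 of the 30 were positive and none was called, with a median of 0.23, and in 5 day recovery against 14 day PLX3397 26 of 30 were negative and none was called, with a median of -0.18. Against control, recovery gave 14 positive and 16 negative genes with a median of -0.013. Adamts4, a secreted protease made by mature oligodendrocytes, had the smallest p from 14 day PLX3397 to recovery, at 11.6 ± 4.34 and 6.20 ± 1.51 FPKM (-0.78, SE 0.19, adjusted p = 0.0979). Pllp, which encodes plasmolipin, a membrane protein of myelin, was at -0.50 with an adjusted p of 0.199. Without replicate 4 of 14 day PLX3397 the counts were 21 of 30 positive and 19 of 30 negative, with medians of 0.095 and -0.056, and without replicates 4 and 5 of 5 day recovery 30 of 30 were negative from 14 day PLX3397 to recovery, with a median of -0.33. In that setting 1 of the 30 was called in 14 day PLX3397 against control, Mal, a proteolipid of myelin membranes named after its values were seen (0.48, adjusted p = 0.0385, against 0.401 with all libraries).

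Transcription factors of the lineage gave no call in any comparison with all libraries. Of 10, 5 were positive and 5 negative in 14 day PLX3397 against control (median -0.020), and 9 of 10 were negative in 5 day recovery against control (median -0.29). Without replicates 4 and 5 of 5 day recovery 7 of 10 were negative, with a median of -0.15. In 5 day recovery against 14 day PLX3397, 4 were positive and 6 negative (median -0.22). There, 5 were positive and 5 negative (median -0.034) without replicates 4 and 5 of 5 day recovery. Without replicate 4 of 14 day PLX3397, 2 were positive and 8 negative in that group against control (median -0.13), and 1 was called, Olig2, a factor of the whole lineage named after its values were seen (-0.70, adjusted p = 0.0287, against -0.59 and 0.138 with all libraries), which also passed without control replicate 1 (adjusted p = 0.0494). Sox8, a relative of Sox10, was at 55.1 ± 6.31, 55.7 ± 4.32 and 37.5 ± 8.88 FPKM in control, treated and recovery mice (the order of the groups from here on), and all recovery libraries lay below all libraries of the other groups. Its log2 differences at recovery were -0.57 against control (adjusted p = 0.0592) and -0.59 against 14 day PLX3397 (adjusted p = 0.0890). Without replicates 4 and 5 of 5 day recovery they were -0.32 (adjusted p = 0.199) and -0.34 (adjusted p = 0.286). Against control 5 of 27 other settings brought the p under 0.05, down to 0.0271, and against 14 day PLX3397 2 of 27 did, down to 0.0369. Sox10 was at 55.5 ± 7.48, 61.4 ± 16.5 and 40.9 ± 8.43 FPKM, with -0.56 at recovery against 14 day PLX3397 (adjusted p = 0.173), and Nkx6-2 was at 24.6 ± 4.06, 25.7 ± 6.94 and 19.2 ± 4.64 FPKM (-0.40, adjusted p = 0.299).

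Genes of earlier stages of the lineage mostly had negative differences from control in both groups. Of 9 tested genes of newly formed oligodendrocytes, all 9 were negative in 14 day PLX3397 against control (median -0.21, or -0.32 without replicate 4 of 14 day PLX3397) and in recovery against control (median -0.40). Fyn, a Src-family kinase of early myelination that neurons also express, fell from 9.63 ± 0.54 to 6.71 ± 0.87 and 5.95 ± 0.32 FPKM (-0.47, adjusted p = 0.00426, and -0.61, adjusted p = 0.000297). Gpr17, a receptor of the stage between precursor and myelinating cell that stands in both lists, was at 6.69 ± 1.29, 3.02 ± 0.75 and 1.71 ± 1.09 FPKM and fell at recovery against control (-1.60, adjusted p = 0.00101). At 14 day PLX3397 its difference from control was -0.94 (adjusted p = 0.105), all treated libraries lay below all control libraries, and 5 of 27 other settings brought the p under 0.05, down to 0.00241 without replicates 4 and 5 of 5 day recovery. Bmp4, a signal made by newly formed oligodendrocytes, was at 1.502 ± 0.642, 1.39 ± 0.54 and 0.66 ± 0.33 FPKM and passed in no comparison.

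Of 10 precursor markers, 9 were negative in 14 day PLX3397 against control, with a median of -0.84, and 4 were called. Pdgfra, the growth factor receptor that defines these cells, fell from 5.20 ± 0.32 to 2.11 ± 0.49 FPKM (-1.01, SE 0.10, adjusted p = 3.9e-06). Neu4, Matn4 and Cspg4 (the NG2 proteoglycan) fell by 1.32, 0.96 and 0.80 on the log2 scale, with adjusted p of 5.5e-05, 0.0202 and 0.00581. Matn4 lost its call in 6 of 15 fits without 1 library and with the replicate number as a block (adjusted p = 0.0684). At recovery Pdgfra was at 4.24 ± 0.13 FPKM (0.77 above 14 day PLX3397, adjusted p = 0.00097) with no overlap between the groups, Neu4 stayed at 1.23 ± 0.41 FPKM against 4.34 ± 0.91 in control (-1.26, adjusted p = 0.000122), and Lhfpl3 was at 10.1 ± 1.66, 8.48 ± 0.76 and 10.1 ± 1.18 FPKM with no call. The precursor genes were measured at much lower levels than the members, so the pseudocount of 1 FPKM understates their changes.

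**Figure D4:**
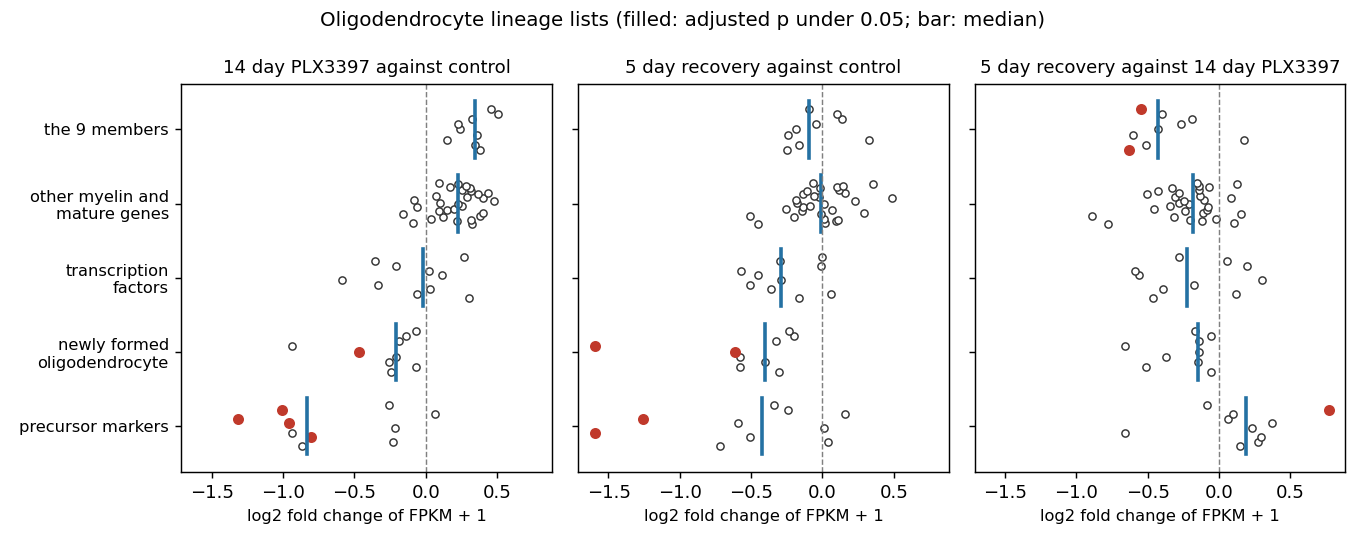
Log2 fold change of FPKM + 1 (horizontal axes) for genes of 5 oligodendrocyte lineage lists (rows) in the 3 comparisons; each point is a gene, filled points have an adjusted p under 0.05 and bars mark the median of the list. In 14 day PLX3397 against control the medians run from -0.84 for precursor markers to 0.34 for the 9 members, and in 5 day recovery against 14 day PLX3397 from 0.19 to -0.43.

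Over the 15 libraries, the genes whose pattern was most like the mean standardized level of the 9 members were taken from all other tested genes with a mean of at least 5 FPKM. Among the first 8 by Pearson r were Gpr37 (0.95), Galnt6 (0.95), Pllp (0.94), Rcbtb1 (0.91), S1pr5 (0.91), Pdlim2 (0.90) and Desi1 (0.90). Gpr37 encodes a receptor of oligodendrocytes, S1pr5 a sphingosine-1-phosphate receptor, and Galnt6 an enzyme that starts O-linked sugar chains. Gpr37 and Pllp stood in the list of 30. Without replicate 4 of 14 day PLX3397 these correlations were between 0.79 and 0.91. S1pr5 was at 18.02 ± 1.56, 23.9 ± 6.12 and 15.5 ± 2.73 FPKM, and Pdlim2 at 30.3 ± 2.91, 42.6 ± 7.06 and 27.9 ± 8.54 FPKM, given with no test since the pattern over these libraries chose them.

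Markers of the other cells in the dissected tissue were read beside these values. All 10 microglial markers fell in both groups against control. Their summed level was 383 to 547 FPKM in control, 11.5 to 15.1 at 14 day PLX3397 and 26.3 to 44.3 at 5 day recovery. From 14 day PLX3397 to recovery all 10 had a positive difference, and 7 were called (Cx3cr1, C1qa, C1qb, C1qc, Csf1r, Tmem119 and Ctss). Striatal neuron markers, led by Penk, summed to 1862 to 3972 FPKM in control, 1974 to 3751 at 14 day PLX3397 and 1994 to 3357 at recovery, with 0 of 10 called. The neuron (Snap25), neuroblast (Tubb3), ependymal (Rarres2), endothelial (Cldn5) and choroid plexus (Ttr) lists had no called gene in any comparison, and the astrocyte list, led by Aldoc, had 1 in each comparison with control, Gfap, named after its values were seen, which encodes the intermediate filament of astrocytes and rose from 62.05 ± 10.3 to 135 ± 22.3 FPKM at 14 day PLX3397 (1.11, adjusted p = 0.00128) and to 168 ± 49.8 FPKM at recovery (1.39, adjusted p = 0.000131). Erythrocyte genes summed to 32.4 to 79.3 FPKM in control, 41.8 to 57.9 at 14 day PLX3397 and 91.3 to 336 at recovery, where Hba-a2 and Hbb-bs were called against both groups and Hba-a1 against control. Astrocyte markers summed to 1413 to 1912 FPKM in control, 1757 to 1998 at 14 day PLX3397 and 1921 to 2934 at recovery. Their highest sums were in 5 day recovery replicates 4 and 5, at 2401 and 2934 FPKM. The part of these differences in make-up in the levels of the 9 genes was not tested.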

How the data were processed

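The authors deposited FPKM values, and only these were used: per the methods, reads were aligned with STAR 2.5.1b, counted with Rsubread and scaled by length and library; the submitters' processing notes name the mm10 build. The labels and the methods give different sequencing platforms and read lengths; which applies to these libraries is not resolved here. Values were analysed as log2(FPKM + 1) for 14151 genes with at least 1 FPKM in at least 3 of 15 libraries, in limma 3.58.1 (R 4.3.3; 3 groups in 1 fit, variance trend, two-sided, Benjamini-Hochberg over all tested genes). The low values are whole multiples of 1 read for 128 of 134 genes checked (tolerance 0.05), which gave 4.57 M to 10.6 M counted reads a library (medians 5.80 M in control, 9.56 M at 14 day PLX3397 and 8.24 M at 5 day recovery). The limma p-values set each group difference against the spread between these libraries, with the variance of each gene drawn towards a trend over all genes. Lists and members were chosen with earlier results of these data known. Named were all members; from each other lineage list the 3 genes with the smallest p in recovery against 14 day PLX3397 and every called gene; from each other cell type the most abundant gene and genes called in that comparison; and the 8 genes most like the members; some genes that this rule names are not reported here. Same-numbered libraries are not given as pairs. Of 15 same-numbered pairs, 5 had deviations correlated above 0.1, over a range from -0.155 to 0.486. No baseline from differently numbered pairs is given, so this does not settle the pairing, and the replicate block is given as an alternative fit. Other pseudocounts, filters, scalings and fits were tried, as was leaving out each library. The fits were tested on simulated data. Figures used matplotlib in Python.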

Additional observations from a re-analysis of the deposited data

Results flagged for a closer look

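In 90 groups of 5 libraries (the members and other named genes of the lineage or most like them, in 3 groups each), the gap between an extreme library and its neighbour exceeded 0.71 of the range in 8, where chance flags about 1 in 20. Of these, 5 were 14 day PLX3397 replicate 4: Mog at 168.2 FPKM, Pllp at 231.1, Galnt6 at 9.992, S1pr5 at 34.68 and Desi1 at 74.04 FPKM, all the highest of their group. Pllp, Galnt6, S1pr5, Desi1 and Pdlim2 were chosen for following the mean of the members, which is highest in that library, so their flags are not independent of that choice and cannot be set against the chance rate. In 5 day recovery replicate 5, Pdlim2 was high at 42.75 FPKM and Fyn was apart at 6.522 FPKM. Nkx6-2 was apart in control replicate 4, at 31.66 FPKM.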

How the results depend on the processing

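Depth is inferred from the FPKM steps, and 5 libraries a group with 1 or 2 standing apart limit what could be called. No alternative called a member in 5 day recovery against control. In 14 day PLX3397 against control 1 member, Tspan2, was called with no filter on low values, with array weights, with the correction for GC content and length and with only genes that have a GC value. In 5 day recovery against 14 day PLX3397, 1 member was called with median centring and with no variance trend. There 0 were called with only the 2 groups in the fit, with 5 day recovery libraries 4 and 5 left out, and with the replicate block, where Cldn11 and Tspan2 both had an adjusted p of 0.0784; the block lost Matn4 too (0.0684). Leaving out 1 library gave 0 to 1 members in 14 day PLX3397 against control and 0 to 2 in 5 day recovery against 14 day PLX3397. The median of the members ranged from 0.22 to 0.42, from -0.16 to -0.04 and from -0.57 to -0.29 in these fits. The number of all genes called in 5 day recovery against 14 day PLX3397 went from 46 to 29 with only these 2 groups, to 124 with array weights and to 25 without libraries 4 and 5, and from 23 to 86 without 1 library; in 5 day recovery against control it went from 180 to between 143 and 330, the highest without 5 day recovery replicate 3. The smallest adjusted p of the tests of relative level was 0.0714 to 0.241 over the alternatives, which says little of stability, since the smallest exact p the libraries allow left few ways to pass.
In 5 day recovery against control, some estimates near 0 turned sign. Mog was at -0.062, Opalin at -0.026 and Galnt6 at -0.0049 with array weights; without libraries 4 and 5 they were at -0.20, -0.23 and -0.079. Mobp was at 0.0049 and Rcbtb1 at 0.046 with median centring, and Rcbtb1 at 0.014 with quantile normalization. Leaving out 1 library gave -0.0027 to 0.29 for Mog, -0.16 to 0.068 for Mobp, -0.068 to 0.32 for Opalin, -0.019 to 0.17 for Galnt6, -0.037 to 0.029 for Rcbtb1 and -0.052 to 0.080 for Lhfpl3, which was at -0.070 with the correction for GC content and length. In 14 day PLX3397 against control it gave -0.019 to 0.082 for Sox8, -0.022 to 0.20 for Sox10, -0.074 to 0.17 for Nkx6-2 (-0.0052 with the correction for GC content and length) and -0.16 to 0.073 for Bmp4. In 5 day recovery against 14 day PLX3397 it gave -0.035 to 0.17 for Neu4, and Ermn was at -0.14 without libraries 4 and 5. The cause of these changes was not tested.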

Other observations

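The series also holds myeloid cells sorted from brain hemispheres, in tables normalized separately, so their levels are not compared with those of the SVZ. The cells came from control mice and from mice at recovery after PLX3397, and the first experiment below adds times after lipopolysaccharide. Each range below pools these groups, which are not compared here. In 24 sorted libraries of the white matter repopulation and lipopolysaccharide experiment Cnp was at 11.9 to 44.6 FPKM, Mag at 7.09 to 25.9 and Mbp at 2.46 to 8.74 FPKM. Mobp was at 0 to 1.91, Cldn11 at 0 to 1.03 and Ermn at 0 to 0.474 FPKM in the same libraries, and Mog, Tspan2 and Opalin were not analysed there. In 7 sorted libraries of the GLOBAL repopulation experiment Cnp was at 20.3 to 34.0, Mag at 12.5 to 23.9, Mbp at 9.17 to 12.5, Mobp at 0.232 to 1.53, Cldn11 at 0 to 1.72 and Tspan2 at 0.261 to 0.727 FPKM, and Mog, Opalin and Ermn were not analysed there. In both tables Cnp and Mag stood above Mbp in median level.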
